A study of Homo sapiens with 9 samples.

Results

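The small nucleolar RNA host genes and a group of related long noncoding RNA genes were followed in MDA-MB-231 cells, a human triple-negative breast cancer line. A rule on the symbol, with no threshold on a measured value, picked them. They comprise the 28 genes named SNHG followed only by digits, and 12 genes named singly: GAS5, ZFAS1, DANCR, EPB41L4A-AS1, TUG1, NORAD, MIR22HG, MIR31HG, H19, OIP5-AS1, FTX and KCNQ1OT1. This gave 40 of the 60719 genes in the table. All recipient cells were wild-type and were kept for 72 h in 5% exo-free medium, either with no small extracellular vesicles (No sEV), with Cont sEV, or with TIS sEV, in 3 libraries each. Both kinds of vesicle came from other MDA-MB-231 cultures, which had been given DMSO or nocodazole, a drug that blocks microtubule assembly, at 100 ng/ml for 72 h and then released for 72 h. The vesicles of the DMSO donors are taken here as Cont sEV and those of the nocodazole donors as TIS sEV, and other effects of the drug cannot be told apart from the donors' state. The labels do not state that replicates came from separate cultures. Every p-value, SE and confidence interval below therefore reflects the spread between these libraries, which may be technical.

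Small nucleolar RNAs (snoRNAs) guide the chemical modification of ribosomal RNA. C/D box snoRNAs direct methylation of the ribose, H/ACA box snoRNAs direct the conversion of uridine to pseudouridine, and related RNAs of the Cajal body act on spliceosomal RNAs. In human cells most of them are cut out of introns, and in the SNHG genes the intron is often the conserved product, while the spliced RNA carries only short open reading frames and is in many cases degraded by nonsense-mediated decay. Several host RNAs also begin with the 5′ terminal oligopyrimidine (TOP) sequence of ribosomal protein mRNAs, which couples their translation, and through it their decay, to growth signals.

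All 40 genes were found in the RefSeq gene table, and 32 of them had at least 1 snoRNA inside their span. They were 27 of the 28 SNHG genes, all but SNHG27, together with GAS5, ZFAS1, EPB41L4A-AS1, DANCR and MIR31HG. SNHG14 held 84 snoRNAs and the others held 68 in all, with 11 in GAS5, 9 in SNHG1, 5 in SNHG17 and 4 in SNHG12. The snoRNAs below belong to SNHG32 (SNORD48 and SNORD52), SNHG5 (SNORD50B) and EPB41L4A-AS1 (SNORA13), and are shown because these hosts were among the 6 of smallest p in the comparison of TIS sEV with Cont sEV. Capitals mark the C box TGATGA and the D box CTGA of the C/D snoRNAs, and the ACA that stands 3 bases from the end of the H/ACA snoRNA. The sequences are DNA-sense transcripts from GENCODE 29.
SNORD48: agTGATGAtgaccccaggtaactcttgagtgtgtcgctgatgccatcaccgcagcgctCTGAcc
SNORD52: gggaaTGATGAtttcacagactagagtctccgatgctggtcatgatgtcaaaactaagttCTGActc
SNORD50B: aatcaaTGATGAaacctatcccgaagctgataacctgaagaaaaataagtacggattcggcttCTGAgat
SNORA13: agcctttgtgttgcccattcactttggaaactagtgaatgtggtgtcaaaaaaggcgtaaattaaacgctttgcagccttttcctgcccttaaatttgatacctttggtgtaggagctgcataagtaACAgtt

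The start of the RNA was read from the RefSeq promoter table (GRCh38.p14), in which 35 of the 40 genes matched; SNHG6, SNHG9, SNHG15, SNHG25 and KCNQ1OT1 did not. A pyrimidine run was scored where the first base of the RNA was C and at least 4 further C or T bases followed, on the gene's own strand. It was found in 7 of the 35 genes (20%), against 4.07% of 35116 RefSeq starts, 59.2% of 76 starts of ribosomal protein genes and 78.6% of 14 starts of other TOP mRNAs. The 7 genes were SNHG4, SNHG5, SNHG12, SNHG18, SNHG19, SNHG32 and ZFAS1. Those of highest level are printed with SNHG12, from 10 bases before the start to 20 bases from it, with the run in capitals. They lie at chr6:31834906-31834935 on the plus strand (SNHG32), chr20:49278632-49278661 on the plus strand (ZFAS1), chr6:85678714-85678743 on the minus strand (SNHG5) and chr1:28581854-28581883 on the minus strand (SNHG12).
SNHG32: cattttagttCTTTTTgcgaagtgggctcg
ZFAS1: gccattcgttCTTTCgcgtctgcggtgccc
SNHG5: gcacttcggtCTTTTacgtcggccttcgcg
SNHG12: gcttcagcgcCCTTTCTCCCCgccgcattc
A match describes these letters only. The window for GAS5 held no such run at its RefSeq start, which lies upstream of the gene as GENCODE 29 draws it. The RefSeq starts of the genes printed lie inside their genes as GENCODE 29 draws them. That of SNHG12 lies furthest in, since its gene begins at 28583132 on the minus strand.

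Transcript levels are gene-level TPM, a relative measure per length of RNA, so levels may be compared between genes but the read depth of a library is unknown. In every library between 21292 and 21975 genes had a value above 0, and 13879 genes reached 1 TPM in at least 3 libraries and were tested. All 8 markers of MDA-MB-231 were among them. Of 7 markers of luminal or epithelial breast cells, KRT19 (403 to 443 TPM), EPCAM (21.1 to 25.9) and GATA3 (2.63 to 4.54) were tested, and ESR1, PGR, FOXA1 and CDH1 did not pass the filter. Of 8 markers of other cell types, COL1A1 (7.07 to 9.26 TPM) and PECAM1 (1.35 to 2.16) were tested, and PTPRC, CDH5, DCN, LUM, ALB and HBB did not pass the filter. PECAM1 averaged 1.45 TPM in the TIS sEV libraries, 2.07 in those of Cont sEV and 1.83 in those of No sEV, and its part in the results was not tested. The 13 mitochondrially encoded mRNAs together took 1.69 to 2.07% of TPM with TIS sEV and 2.14 to 2.84% with Cont sEV, without overlap, against 2.04 to 2.41% with No sEV. Their part in the values below was not tested beyond a fit that leaves these mRNAs out, which is given where it bears on a result.

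Some of the host RNAs were abundant, and a few of them made up most of the total. The 40 genes summed to 6373 ± 159 TPM with No sEV, 6394 ± 81.2 with Cont sEV and 6346 ± 120 with TIS sEV (SD, n = 3), or 0.637%, 0.639% and 0.635% of all TPM, and the ranges of the groups overlapped. GAS5, SNHG29, SNHG32, ZFAS1, SNHG5 and SNHG8 together held 81.0% of this sum. In bulk RNA, a change in the cells that express a gene and a change in the RNA per cell cannot be told apart.

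By level, 10 genes had a mean of at least 100 TPM, 15 lay from 10 to under 100, 7 from 1 to under 10, and 8 under 1 TPM. GAS5, growth arrest specific 5, whose spliced RNA accumulates when growth stops, was the highest at 1299 TPM over the 9 libraries (chromosome 1 from 173863900 to 173868882, minus strand, GENCODE 29 on GRCh38). SNHG29 followed at 990.1 TPM, SNHG32 at 897, ZFAS1 at 811, SNHG5 at 702 and SNHG8 at 464. These 6 neighbours in level did not overlap over the 9 libraries except for SNHG32 with ZFAS1 (840.4 to 954 against 778 to 849). SNHG6 (173 TPM), SNHG1 (146), NORAD (129) and EPB41L4A-AS1 (112) closed the highest class, and neighbours among them overlapped over the libraries.

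In the middle class, SNHG15 ranged from 71.6 to 82.4 TPM and DANCR from 70.4 to 82.6. SNHG17 (54.9 to 60.3), SNHG3 (51.8 to 62.9), SNHG12 (46.3 to 70.4), SNHG7 (52.0 to 57.5) and SNHG16 (49.3 to 56.8) had overlapping ranges. Within each library, SNHG17 nonetheless lay above SNHG16. Below them came TUG1 (37.3 to 42.2 TPM), SNHG9 (30.1 to 41.3), SNHG19 (27.7 to 36.2), OIP5-AS1 (23.5 to 27.6) and MIR22HG (15.8 to 20.7). SNHG4 (11.6 to 17.4), SNHG25 (6.07 to 15.9) and SNHG30 (11.2 to 12.8) overlapped one another. The lower genes, SNHG11, SNHG10, SNHG21, SNHG26, FTX and SNHG20, hosts of small RNAs such as the Cajal body RNAs of SNHG10, SNHG20 and SNHG21, ranged from 2.22 to 9.71 TPM.

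**Figure D1:**
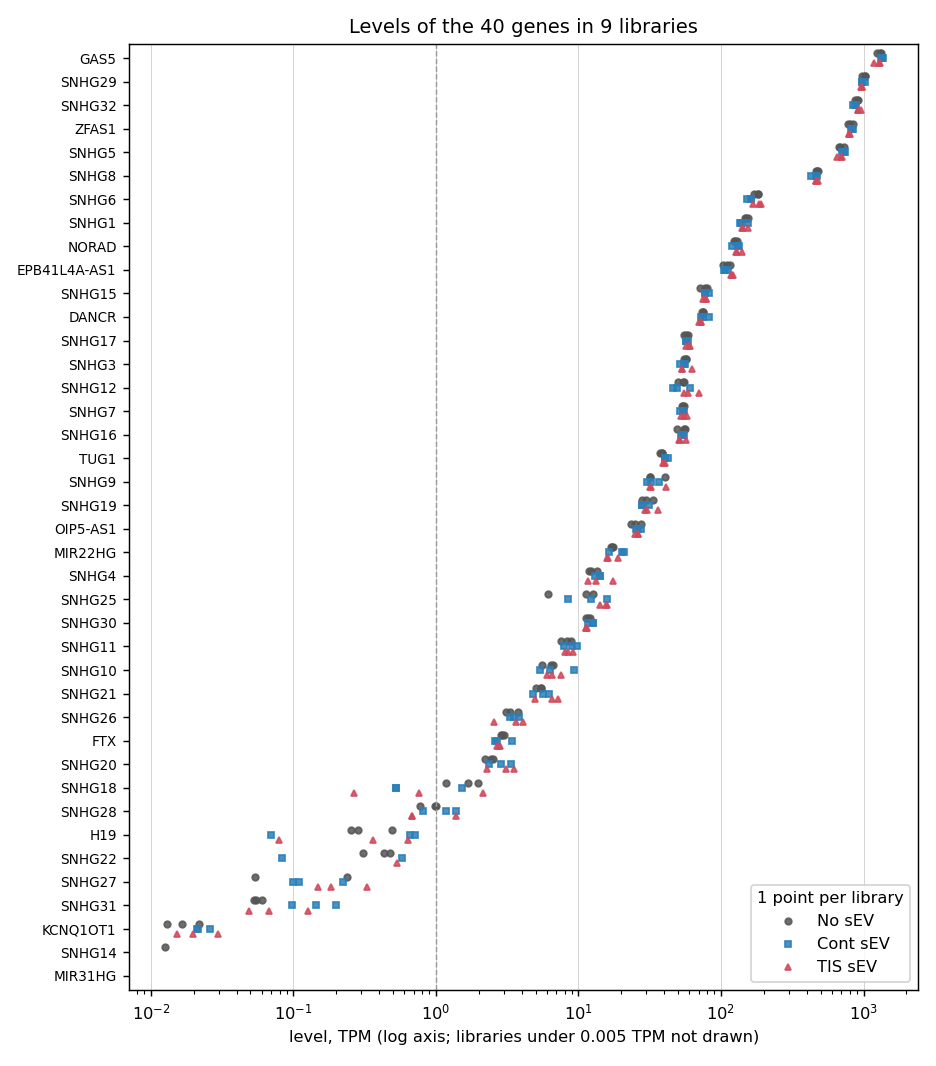
TPM of each of the 40 genes on a log axis, with 1 point per library and the filter of 1 TPM as a dashed line; values under 0.005 TPM are not drawn. The 9 points of each abundant gene lie close together, from GAS5 at 1185 to 1361 TPM down, and the spread widens below 10 TPM.

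The spread over the 9 libraries widened as the level fell. The coefficient of variation had a median of 4.23% in the 10 genes of at least 100 TPM, from 2.84% for SNHG29 to 7.56% for SNHG6. It was 4.96% in the 15 genes of the next class, where SNHG25 stood highest at 27.5%, and 15.9% in the 8 tested genes under 10 TPM, where SNHG18 reached 58.4% and SNHG28 28.1%. SNHG25 has a longest annotated transcript of only 278 bases.

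The comparison of TIS sEV with Cont sEV asks what the vesicles of nocodazole-treated donors did beyond those of control donors. No member of the group differed by the test. The differences of smallest p were higher means with TIS sEV for SNHG32, SNHG6 and EPB41L4A-AS1, by 7.47%, 14.0% and 10.6%, and a mean of GAS5 that was lower by 6.27% (percent difference -6.27). With limma, and p-values adjusted by Benjamini-Hochberg over all genes, 0 of the 33 tested members passed, against 0.0937% of all genes. At an unadjusted p under 0.05 there were 6 members (18.2%), against 10% of all genes. SNHG32, SNHG6, EPB41L4A-AS1 and SNHG12 had higher means (against 7.07% of all genes), and GAS5 and SNHG5 lower means (against 2.93%).

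SNHG32 (chromosome 6 from 31834608 to 31839766, plus strand) is the host of SNORD48 and SNORD52 printed above. GENCODE 29 names it C6orf48 and types it as protein-coding. SNHG32 stood at 919, 919 and 954 TPM with TIS sEV. It stood at 874, 884 and 840.4 TPM with Cont sEV and at 896, 909 and 877 TPM with No sEV. The 3 TIS sEV libraries were the highest of the 9, and Cont sEV and No sEV overlapped. On the log2(TPM + 1) scale used throughout, the difference from Cont sEV was 0.10 (SE 0.03, 95% confidence interval 0.04 to 0.16, limma adjusted p = 0.238).

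SNHG6 (chromosome 8 from 66921684 to 66926398, minus strand), the host of SNORD87, was at 191, 186 and 168 TPM with TIS sEV. With Cont sEV it was at 151, 163 and 163 TPM, and with No sEV at 183, 182 and 172 TPM. All 3 Cont sEV libraries lay below the other 6, and TIS sEV overlapped No sEV. The difference between TIS sEV and Cont sEV was 0.19 (SE 0.05, interval 0.07 to 0.30, limma adjusted p = 0.259).

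EPB41L4A-AS1 (chromosome 5 from 112160526 to 112164276, plus strand), the host of SNORA13, overlaps the protein-coding gene EPB41L4A on the other strand. It was at 119, 121 and 117 TPM with TIS sEV, at 107, 112 and 105 TPM with Cont sEV, and at 103, 116 and 110.3 TPM with No sEV. The TIS sEV libraries lay above all others, closest to No sEV replicate 2. The difference from Cont sEV was 0.14 (SE 0.04, interval 0.05 to 0.24, limma adjusted p = 0.292).

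GAS5 was at 1285, 1307 and 1185 TPM with TIS sEV, at 1332, 1361 and 1338 TPM with Cont sEV, and at 1309, 1335 and 1240.2 TPM with No sEV. The TIS sEV libraries lay below all Cont sEV libraries, and No sEV overlapped both. The difference between TIS sEV and Cont sEV was -0.09 (SE 0.04, interval -0.18 to -0.01, limma adjusted p = 0.463), and without TIS sEV replicate 3, the lowest library, it was -0.05.

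SNHG12 (chromosome 1 from 28578538 to 28583132, minus strand), which hosts SNORA16A, SNORA44, SNORA61 and SNORD99, was at 55.3, 70.4 and 58.5 TPM with TIS sEV. It was at 60.4, 49.1 and 46.3 TPM with Cont sEV and at 49.6, 55.0 and 53.9 TPM with No sEV. Cont sEV replicate 1 lay above 2 of the TIS sEV libraries, so those groups overlapped. The difference was 0.24 (SE 0.11, limma adjusted p = 0.489), and 0.14 without TIS sEV replicate 2, the highest library. SNHG12 overlaps the protein-coding gene TRNAU1AP (22.5 to 26.6 TPM) on the other strand, and without a stated strand setting reads of the overlap cannot be assigned with certainty.

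**Figure D2:**
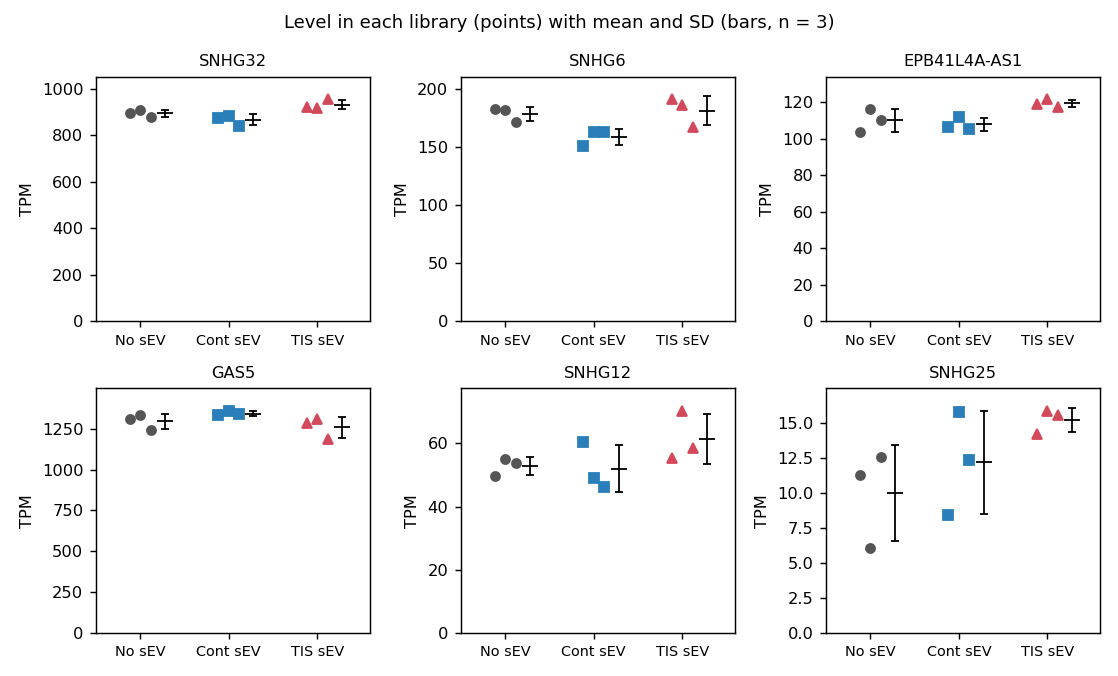
TPM of 6 genes in each library (points), with the mean and SD of each group of 3 beside them and axes that start at 0. SNHG32 and EPB41L4A-AS1 lie highest in the 3 TIS sEV libraries, SNHG6 lies lowest in the 3 Cont sEV libraries, and for SNHG25 the lowest No sEV library stands at 6.07 TPM.

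Leaving out the mitochondrially encoded genes and rescaling gave 0.09 for SNHG32, 0.18 for SNHG6, 0.13 for EPB41L4A-AS1 and -0.10 for GAS5 in the comparison of TIS sEV with Cont sEV. In that comparison 6 members had groups that did not overlap (18.2%, against 15.4% of all genes). SNHG32, SNHG6 and EPB41L4A-AS1 were higher with TIS sEV in this sense (10.9% of all genes), and GAS5, ZFAS1 and SNHG30 lower (4.47%). ZFAS1 (chromosome 20 from 49278178 to 49295738, plus strand), the host of SNORD12, SNORD12B and SNORD12C, was at 810.4, 794 and 791 TPM with TIS sEV, 817, 838 and 828 TPM with Cont sEV, and 798, 849 and 778 TPM with No sEV. Its No sEV libraries spanned both other groups. SNHG5 (chromosome 6 from 85660950 to 85678748, minus strand) was at 707, 691 and 652 TPM with TIS sEV, 703, 740.2 and 735 TPM with Cont sEV, and 688, 728 and 671 TPM with No sEV, and all 3 groups overlapped. Means were higher with TIS sEV in 17 of the 33 members, against 59.6% of all genes, and the median log2 fold change was 0.01 against 0.02 over all genes.

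TIS sEV against No sEV takes in the addition of vesicles as well as their source, and shares the TIS sEV libraries with the comparison above. Here too 0 of 33 members passed, against 0.00721% of all genes, and 2 members, EPB41L4A-AS1 and SNHG25, were at an unadjusted p under 0.05 in limma's test (6.06%, against 7.97% of all genes). Both had higher means, as did 6.33% of all genes at that p, while 0 members had a lower mean, against 1.64%. EPB41L4A-AS1 had a mean of 119 ± 2.15 TPM with TIS sEV against 109.9 ± 6.26 with No sEV (SD, n = 3), a log2 difference of 0.12 (SE 0.04, limma adjusted p = 0.578), which was 0.07 without No sEV replicate 1. SNHG25 (chromosome 17 from 64145970 to 64146476, plus strand), the host of SNORD104, was at 14.2, 15.9 and 15.5 TPM with TIS sEV, 8.44, 15.8 and 12.3 TPM with Cont sEV, and 11.2, 6.07 and 12.6 TPM with No sEV. The TIS sEV libraries lay above those of No sEV and overlapped those of Cont sEV. Its difference from No sEV was 0.62 (SE 0.25, interval 0.07 to 1.17, limma adjusted p = 0.588), the highest fold change of any tested member in this comparison, and it was 0.33 without No sEV replicate 2.

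SNHG32 differed by 0.06 between TIS sEV and No sEV (SE 0.03, limma adjusted p = 0.640), and by 0.02 when libraries were scaled by the median of ratios. SNHG12 differed by 0.21 (SE 0.11, limma adjusted p = 0.667), and by 0.11 without TIS sEV replicate 2. SNHG29 (chromosome 17 from 16438822 to 16478678, plus strand), named LRRC75A-AS1 in GENCODE 29 and host of SNORD49A, SNORD49B and SNORD65, was at 984, 957 and 970.3 TPM with TIS sEV, 977, 1022 and 975 TPM with Cont sEV, and 1026, 1031 and 968 TPM with No sEV. No sEV replicate 3 lay within the TIS sEV range. The difference of SNHG29 between TIS sEV and No sEV was -0.05 (SE 0.03, limma adjusted p = 0.691), and quantile normalization turned its sign. It was -0.09 with median-of-ratios scaling and -0.08 without No sEV replicate 3.

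In 7 members (21.2%, against 14.1% of all genes) the TIS sEV and No sEV libraries did not overlap. EPB41L4A-AS1, SNHG25, SNHG32, SNHG12 and TUG1 were higher with TIS sEV (11.3% of all genes), and DANCR and FTX lower (2.77%). DANCR (chromosome 4 from 52712404 to 52720351, plus strand), a noncoding RNA named for its effect on differentiation and host of SNORA26, was at 71.9, 72.4 and 70.4 TPM with TIS sEV, 72.4, 74.8 and 82.6 TPM with Cont sEV, and 73.5, 74.7 and 74.4 TPM with No sEV. The gap between TIS sEV and No sEV was small beside the spread of the Cont sEV libraries. Means were higher with TIS sEV in 18 of 33 members, against 66.7% of all genes, and the median log2 fold change was 0.01 against 0.03.

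Cont sEV against No sEV compares cells given vesicles of control donors with cells given none. Anything else added with the vesicles cannot be told apart from them. Of the 33 members 0 passed, against 0% of all genes, and 2 were at an unadjusted p under 0.05 in limma's test (6.06%, against 6.03% of all genes). They were TUG1, with a higher mean (against 3.53% of all genes), and SNHG6, with a lower one (against 2.5%). TUG1 and SNHG6 were also the 2 whose groups did not overlap (6.06%, against 11.2% of all genes, or 6.72% higher and 4.47% lower). SNHG6 had a mean of 159 ± 6.88 TPM with Cont sEV against 179 ± 6.22 with No sEV (SD, n = 3), a log2 difference of -0.17 (SE 0.05, interval -0.28 to -0.05, limma adjusted p = 0.789). With TIS sEV it was 182 ± 12.5 TPM, 0.02 from No sEV (interval -0.10 to 0.14).

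TUG1 (chromosome 22 from 30969245 to 30979395, plus strand), a noncoding RNA first described in the retina that hosts no snoRNA, was at 40.6, 40.2 and 42.2 TPM with Cont sEV, 39.1, 40.6 and 40.03 TPM with TIS sEV, and 37.3, 38.3 and 38.6 TPM with No sEV. The 3 No sEV libraries were the lowest of the 9. The difference of Cont sEV from No sEV was 0.10 (SE 0.04, interval 0.02 to 0.19, limma adjusted p = 0.789). SNHG32 differed by -0.05 in this comparison (SE 0.03, limma adjusted p = 0.865), and by -0.02 without Cont sEV replicate 3.

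SNHG8 (chromosome 4 from 118278709 to 118279823, plus strand), the host of SNORA24, was at 468, 463 and 427 TPM with Cont sEV, 463, 468 and 481 TPM with No sEV, and 462, 476 and 466 TPM with TIS sEV. Cont sEV replicate 3 was the lowest of the 9 libraries. The difference of Cont sEV from No sEV was -0.06 (SE 0.04, limma adjusted p = 0.868), and -0.02 without that library. SNHG18, the host of SNORD123, was close to the filter, at 1.52, 0.524 and 0.526 TPM with Cont sEV, 1.68, 1.18 and 1.96 TPM with No sEV, and 0.267, 0.763 and 2.13 TPM with TIS sEV. The groups overlapped. Its difference of Cont sEV from No sEV was -0.52 (SE 0.32, interval -1.23 to 0.19, limma adjusted p = 0.868) with a pseudocount of 1 and -0.96 with a pseudocount of 0.1. Means were higher with Cont sEV in 20 of 33 members, against 56.5% of all genes, with a median of 0.03 against 0.01. With median-of-ratios scaling the medians over members were -0.01, -0.02 and 0.02 in the 3 comparisons, in the order given here.

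**Figure D3:**
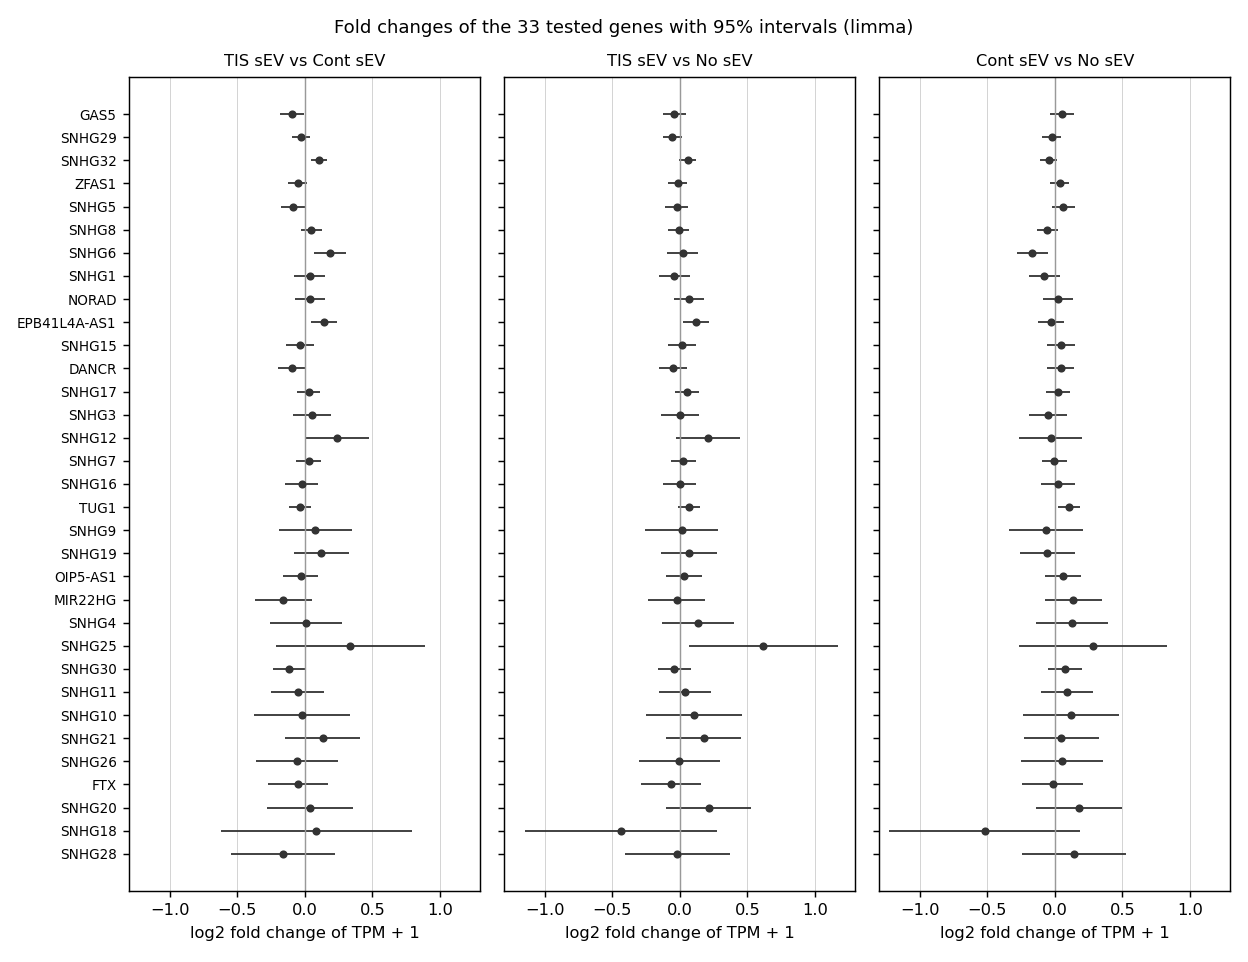
Log2 fold changes of TPM + 1 for the 33 tested genes in each comparison, ordered by mean level, with limma's 95% confidence intervals as lines. Intervals are narrow for the abundant genes and wide for SNHG25 and SNHG18.

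A test over the 3 groups at once called 0 of 33 members, against 0.0216% of all genes, and 4 were at an unadjusted p under 0.05, against 8.72%. SNHG6 had the smallest p in this moderated F test by limma (F = 7.75, adjusted p = 0.418), followed by SNHG32 (adjusted p = 0.440) and EPB41L4A-AS1 (adjusted p = 0.471). A p above the threshold does not show that levels were equal. The intervals give a range for each difference on the log2(TPM + 1) scale. They rest on the same spread between libraries, which may be technical, and were not adjusted for the number of genes. Of the 25 members with a mean of at least 10 TPM, 24 had a 95% confidence interval within 1.5-fold in each of the 3 comparisons, the exception being SNHG25. Of the 10 members of at least 100 TPM, all were within 1.2-fold for TIS sEV against No sEV, and all but SNHG6 in each of the other comparisons.

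**Figure D4:**
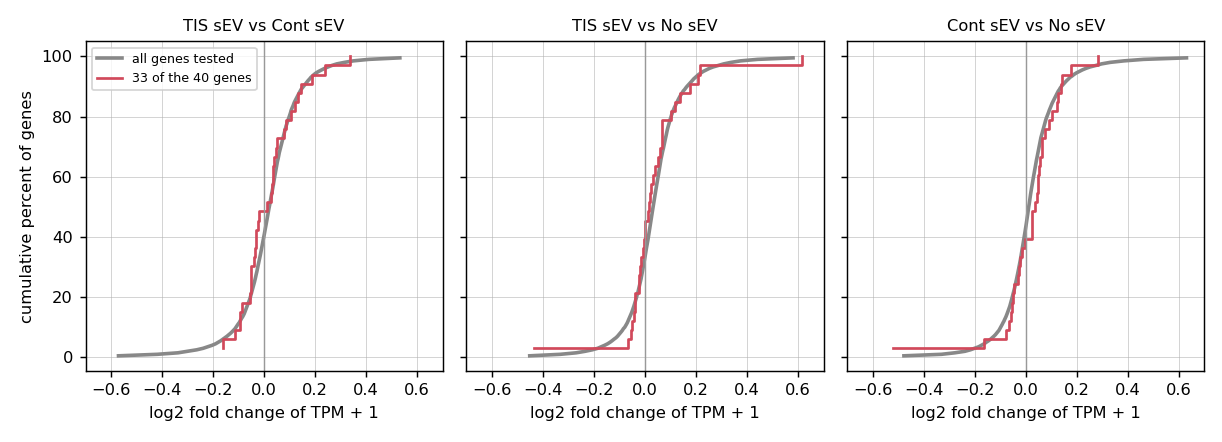
Cumulative percent of genes by log2 fold change of TPM + 1, for the tested genes of the group (red steps) and for all tested genes (grey line, from the 0.5 percentile up). The red steps follow the grey line, with medians of 0.01, 0.01 and 0.03 against 0.02, 0.03 and 0.01.

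Apart from MIR31HG, the remaining singly named noncoding RNAs host no snoRNA in the RefSeq table. NORAD (chromosome 20 from 36045622 to 36050960, minus strand) is a cytoplasmic RNA known for its part in keeping the genome stable. It was at 127, 139.9 and 130.1 TPM with TIS sEV, 134, 119.9 and 132 TPM with Cont sEV, and 123, 126 and 129.7 TPM with No sEV, and all 3 groups overlapped.

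OIP5-AS1, also known as cyrano, an RNA that pairs with a microRNA and binds the HuR protein encoded by ELAVL1, was at 25.0, 26.0 and 26.0 TPM with TIS sEV, 27.6, 26.0 and 25.3 TPM with Cont sEV, and 23.5, 27.3 and 24.8 TPM with No sEV. The groups overlapped. ELAVL1 ranged from 109.5 to 119 TPM. OIP5, which overlaps it on the other strand, ranged from 9.41 to 12.1 TPM.

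MIR22HG and MIR31HG, H19 and FTX are hosts of microRNAs, whose mature sequences from RefSeq are given with the seed, bases 2 to 8, in capitals because it sets which mRNAs a microRNA pairs with. The microRNAs themselves were not measured here. None of the 4 hosts shares a seed with another in the sequences printed.
hsa-miR-22-3p: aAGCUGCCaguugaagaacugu
hsa-miR-31-5p: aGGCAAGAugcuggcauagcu
hsa-miR-675-5p: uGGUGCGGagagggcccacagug
hsa-miR-374b-5p: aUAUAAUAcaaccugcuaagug
MIR22HG (chromosome 17 from 1711493 to 1717174, minus strand) was at 19.03, 15.8 and 16.0 TPM with TIS sEV, 20.4, 20.7 and 16.3 TPM with Cont sEV, and 17.5, 17.3 and 16.9 TPM with No sEV. The 2 highest libraries were of Cont sEV, and Cont sEV replicate 3 lay below all of No sEV. FTX, a noncoding gene of the X inactivation centre that hosts miR-374b, was at 2.77, 2.82 and 2.67 TPM with TIS sEV, 3.41, 2.69 and 2.6 TPM with Cont sEV, and 2.87, 2.92 and 3.00 TPM with No sEV. TIS sEV lay just below No sEV, and the Cont sEV libraries spanned both.

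The 7 genes that did not pass the filter, imprinted ones among them, were at or near 0 TPM. H19, the maternally expressed host of miR-675, was at 0.0794, 0.638 and 0.361 TPM with TIS sEV, 0.717, 0.0699 and 0.662 TPM with Cont sEV, and 0.252, 0.282 and 0.491 TPM with No sEV. IGF2, its imprinted neighbour, ranged from 9.13 to 10.5 TPM. KCNQ1OT1, the paternally expressed antisense RNA of KCNQ1, which silences CDKN1C and PHLDA2 on the same chromosome copy, was at 0.0153, 0.0297 and 0.0196 TPM with TIS sEV, 0.0212, 0.0213 and 0.026 TPM with Cont sEV, and 0.0131, 0.0218 and 0.0166 TPM with No sEV. Its groups overlapped. CDKN1C ranged from 11.5 to 14.7 TPM and PHLDA2 from 131 to 146 TPM.

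MIR31HG (chromosome 9 from 21455642 to 21559669) was listed at 0 in all 9 libraries. MTAP and CDKN2A, which lie near it on the short arm of chromosome 9, and IFNE, which lies inside its span on the same strand, were also listed at 0 in all 9. SNHG14, the long imprinted host of the SNORD115 and SNORD116 clusters that is known mainly from neurons, was listed at 0 except in No sEV replicate 2, at 0.0126 TPM. SNHG22, SNHG27 and SNHG31 ranged from 0 to 0.578 TPM. SNHG28 had a mean of 0.986 TPM and was tested because at least 3 libraries reached 1 TPM. In all 7 members were not tested: H19, SNHG22, SNHG27, SNHG31, KCNQ1OT1, SNHG14 and MIR31HG.

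Most of the snoRNAs have entries of their own in the table, and these say little about the mature RNAs. SNHG14 held 84 snoRNAs and the other members 68, and 136 of all these were found by symbol. Of the 11 in GAS5, only SNORD79 and SNORD81 were found. Among the 136 entries, 131 were listed at 0 in every library, and SNORA73B in SNHG3, at 4.54 to 12.98 TPM, was the one above 1 TPM in all 9. The values of the hosts are those of their annotated transcripts, and whether reads of the snoRNAs entered them was not tested. SNHG3, SNHG4 and SNHG20 overlap the protein-coding genes RCC1, MATR3 and SEC14L1 on the same strand, and SNHG32 overlaps the noncoding gene AL671762.1. ZFAS1, SNHG10, OIP5-AS1 and SNHG4 overlap ZNFX1, GLRX5, OIP5 and SIL1 on the other strand. The noncoding gene JPX, at a mean of 23.0 TPM, overlaps FTX on the other strand. The values of these and other overlapping members depend on how reads of the overlap were assigned.

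Genes that act with the hosts were described from fixed lists, and limma called 0 genes of each list in each comparison. The medians of the lists below lay between -0.03 and 0.03, and the sign of several turned with the scaling, so their counts of higher and lower means describe this scale only. Of 20 proteins of snoRNA particles and their assembly, such as fibrillarin, 11 had a higher and 9 a lower mean for TIS sEV against Cont sEV. Over all genes 59.6% had a higher mean. The median was 0.02, and 4 were at an unadjusted p under 0.05, against 10% of all genes. NOP58, a core protein of C/D particles, was at 73.3 TPM with TIS sEV against 79.1 with Cont sEV (-0.11, limma adjusted p = 0.382), and GAR1, of H/ACA particles, at 72.9 against 67.3 TPM (0.11, adjusted p = 0.413). NHP2, also of H/ACA particles, was at 179 TPM with Cont sEV against 198 with No sEV (-0.15, limma adjusted p = 0.640). In TIS sEV against No sEV 13 of the 20 were higher (66.7% of all genes), and in Cont sEV against No sEV 11 (56.5%). In each, 1 was at an unadjusted p under 0.05, against 7.97% and 6.03% of all genes.

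Of 25 protein-coding genes that host snoRNAs, 19 had a higher mean for TIS sEV against Cont sEV, as did 59.6% of all genes. The median was 0.03, against 0.02 over all genes, with 3 at an unadjusted p under 0.05 (10% of all genes). HSPA8, a chaperone gene that hosts C/D snoRNAs, was at 1639 TPM with TIS sEV against 1741 with Cont sEV (-0.09, limma adjusted p = 0.207), and RABGGTB at 185 against 169 TPM (0.13, adjusted p = 0.378). In TIS sEV against No sEV 15 of the 25 were higher (66.7% of all genes) with 3 at an unadjusted p under 0.05 (7.97%). In Cont sEV against No sEV 12 were higher (56.5% of all genes) with 1 at that p (6.03%).

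Of 16 factors of nonsense-mediated decay, the pathway that degrades many host RNAs, the mean was higher for TIS sEV against Cont sEV in 11 (median 0.03), for TIS sEV against No sEV in 12 (median 0.03) and for Cont sEV against No sEV in 10 (median 0.01). Over all genes 59.6%, 66.7% and 56.5% had a higher mean. At an unadjusted p under 0.05 there were 2, 0 and 1, against 10%, 7.97% and 6.03% of all genes. CASC3 was at 46.6 TPM with TIS sEV against 43.8 with Cont sEV (0.09, limma adjusted p = 0.466). Of 75 ribosomal protein genes, the main TOP mRNAs, the mean was lower in 48 for TIS sEV against Cont sEV, in 59 for TIS sEV against No sEV and in 49 for Cont sEV against No sEV. The medians were -0.02, -0.03 and -0.03, against 0.02, 0.03 and 0.01 over all genes, and the first of them was 0.02 after quantile normalization. Higher means were found in 27, 16 and 26 of the 75, against 59.6%, 66.7% and 56.5% of all genes. At an unadjusted p under 0.05 there were 12, 17 and 13 of them, against 10%, 7.97% and 6.03% of all genes. They were 6 higher and 6 lower in the first comparison, 1 higher and 16 lower in the second, and 1 higher and 12 lower in the last. Of 19 translation factors and other TOP mRNAs, 13, 13 and 6 had a higher mean in these comparisons, with medians of 0.02, 0.02 and -0.01 and 2, 3 and 1 at an unadjusted p under 0.05. EIF3L was at 268 TPM with TIS sEV against 253 with No sEV (0.08, limma adjusted p = 0.518).

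Of 20 neighbours, overlapping genes and partners of members, 17 were tested. Means were higher in 8 of them for TIS sEV against Cont sEV. They were higher in 12 for TIS sEV against No sEV and in 10 for Cont sEV against No sEV. At an unadjusted p under 0.05 there were 2, 1 and 0. Over all genes 59.6%, 66.7% and 56.5% had a higher mean, and 10%, 7.97% and 6.03% were at that p. MORC2, whose start lies next to that of TUG1 on the other strand, averaged 34.8 TPM in the TIS sEV libraries, 31.3 TPM in those of Cont sEV and 29.2 TPM in those of No sEV. Its difference between TIS sEV and No sEV was 0.25 (limma adjusted p = 0.298). CDKN1C was at 14.5 TPM with TIS sEV against 12.5 with Cont sEV (0.20, limma adjusted p = 0.380).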

How the data were processed

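The 9 columns of TPM were deposited by the authors as gene-level values. The submitters' processing notes name Salmon 1.4.0, Trim Galore 0.6.6, FastQC 0.11.9, DESeq2 1.28.0 and the genome build GRCh38.p13. For the annotation release and the strand setting the sources used here give nothing, and depth cannot be read from TPM. Symbols were matched by Ensembl ID (99.58% of genes), with coordinates from GENCODE 29. Values were tested as log2(TPM + 1), which understates fold changes of low genes, after a filter of 1 TPM in any 3 libraries that left 13879 genes. All libraries entered one limma fit (version 3.58.1, R 4.3.3) with a variance trend, two-sided, with Benjamini-Hochberg adjustment per comparison at 0.05. The limma fit was tested on simulated data with known changes, and the other steps were not. The members and lists were chosen with earlier results of these data known. Full values are given for the 5 members of smallest p per comparison, the 5 of highest level and the singly named genes, and at most 4 genes per list, those of smallest p, may be named; SNHG8 and SNHG18 fall under the first part. Alternatives were other pseudocounts, filters, scalings and variance models, fewer libraries, and a replicate block. A gene that entered the fit and 1 list, and what rests on it, is not reported here.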

Additional observations from a re-analysis of the deposited data

How the results depend on the processing

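In each of the 20 alternatives per comparison, and in each of 19 for the F test, limma called 0 members. Of 15 fold changes given in full, 14 kept their sign in every alternative in which they were fitted. That of SNHG29 for TIS sEV against No sEV was 0.0088 after quantile normalization; the cause was not tested. The 299 values so obtained include 0 that passed, with a smallest adjusted p of 0.211. SNHG18 could not be fitted where at least 5 TPM was required. Median-of-ratios scaling moved the median of all genes by less than 0.1.

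Counts over all genes moved more. For TIS sEV against Cont sEV 13 genes were called, 2 with a constant prior variance, 3 with only the 6 libraries compared, and 2 to 13 without 1 library. The count was 2 when Cont sEV replicate 2 was left out, and also when TIS sEV replicate 1 was. It was 3 when No sEV replicate 3 was left out, and also when Cont sEV replicate 3 was. Leaving out TIS sEV replicate 2 gave 4, TIS sEV replicate 3 gave 7 and No sEV replicate 1 gave 8. For TIS sEV against No sEV 1 gene was called, 9 with no filter, 0 with a constant prior variance, 2 with only the 6 libraries compared, and 1 to 2 without 1 library (2 when replicate 2 of Cont sEV was left out, and 2 when replicate 2 or 3 of TIS sEV was). For Cont sEV against No sEV 0 were called, 7 with no filter, 1 with the filter of 5 TPM, and 0 to 1 without 1 library (1 without Cont sEV replicate 2).

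No pairing by replicate number was seen: residuals of same-numbered libraries correlated at -0.0479 to 0.0791, and those of other pairs at -0.101 to 0.1002. With 3 libraries per group, this cannot show that there was none. With the replicate number as a block, 0 members were called in each comparison, and 9, 1 and 0 genes in all.

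TPM carries no depth, so no counting error is given. Of the tested members with a mean of at least 1 TPM, SNHG18 and SNHG25 have intervals that reach beyond 1.5-fold.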
